A study of Homo sapiens with 15 samples.

Results

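The human mitochondrial genome encodes 37 genes, and all 37 have a row on chromosome MT among the 58735 genes measured here. They were chosen by chromosome alone: 13 protein genes, 2 ribosomal RNA (rRNA) genes and 22 transfer RNA (tRNA) genes. The cells were A549, a line established from a human adenocarcinoma of the lung and labelled type II alveolar epithelial, and their RNA was sequenced in 15 libraries from 5 groups of 3. The treated groups, coded CDSUM, CDWIN, CQSUM and CQWIN, were exposed for 24 h to urban fine particles (PM2.5; dose 100 µg/mL), and the control group received the same volume of the solvent dimethyl sulfoxide (DMSO) for 24 h. The title places the particles in southwestern China, and the sources used here leave the codes unexplained. All groups are this 1 cell line, for which the labels name no engineered allele. Nothing in the labels says that replicates were separate cultures, and p-values then measure only the spread between these libraries, which may be technical.

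Libraries held 17583532 to 19216323 reads in genes. The epithelial marker list (EPCAM, KRT8, KRT18, KRT19, CDH1, CLDN4) summed to 4418 to 6002 CPM (counts scaled to a fixed library total) in PM2.5 libraries and 8879 to 11803 CPM in DMSO libraries. Of the 10 alveolar type II markers, the surfactant protein genes SFTPA1 and SFTPA2 were at 0 in every library, SFTPC did not pass 0.48 CPM, and the list summed to 42.2 to 68.3 CPM in PM2.5 and 75.9 to 87.6 CPM in DMSO. SFTPA1, SFTPA2 and SFTPC were thus absent or close to it. Of the 10 markers 2 passed the filter on low counts used below, and the levels of the other members are not given singly. Leukocyte markers summed to 6.91 to 14.9 and 9.55 to 11.8 CPM, fibroblast markers to 3.78 to 10.3 and 8.39 to 14.7 CPM, and endothelial markers to at most 1.18 and 0.193 CPM, in PM2.5 and DMSO. The part that these shifts in epithelial markers have in the results below was not tested.

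The mitochondrial genome is a small circle present in many copies per cell. Both of its strands are transcribed as long precursors, and tRNAs lying between the other genes mark where the precursors are cut. The heavy-strand precursor carries the rRNAs, most tRNAs and every protein gene except MT-ND6, which lies on the light-strand precursor with the remaining tRNAs. The protein genes encode core subunits of respiratory complexes I, III and IV and of the ATP synthase (complex V), and the rRNAs, MT-RNR1 and MT-RNR2, form the small and large subunits of the mitochondrial ribosome. In bulk RNA, fewer mitochondrial genomes or cells and less RNA per genome cannot be told apart.

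Several genes touch or overlap, and no source says whether the libraries kept strand, so reads of neighbours can be shared. The sequences shown are those of the 2 best covered tRNA genes, of the tRNA gene that follows the rRNAs, and of the overlaps between protein genes. These genes appear in the tRNA, complex I and complex V results, and whether any change depends on the marked bases was not tested. They are from the GENCODE release 29 transcripts on GRCh38. MT-TN (tRNA for asparagine, chrMT:5657-5729, minus strand) and MT-TC (tRNA for cysteine, chrMT:5761-5826, minus strand) lie 31 bases apart, on either side of the origin of light-strand replication. Capitals mark the 7 bases on each side of the acceptor stem in MT-TN and MT-TC, the 13-base binding site of the termination factor MTERF1 in MT-TL1 (tRNA for leucine, chrMT:3230-3304, plus strand), and the bases that belong to both genes in the last 2 lines (chrMT:8512-8587 and chrMT:10745-10781, plus strand, each with 15 bases to either side).
MT-TN: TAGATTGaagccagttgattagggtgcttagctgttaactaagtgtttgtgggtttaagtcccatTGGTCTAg
MT-TC: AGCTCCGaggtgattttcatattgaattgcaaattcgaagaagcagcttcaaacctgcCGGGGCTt
MT-TL1: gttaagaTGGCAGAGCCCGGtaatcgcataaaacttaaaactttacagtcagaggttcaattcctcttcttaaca
MT-ATP8 and MT-ATP6: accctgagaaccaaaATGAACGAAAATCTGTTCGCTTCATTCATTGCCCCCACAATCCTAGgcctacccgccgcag
MT-ND4L and MT-ND4: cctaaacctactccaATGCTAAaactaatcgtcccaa
The reading frames of MT-ATP8 and MT-ATP6 share 46 bases, a large part of the 207-base MT-ATP8, whereas MT-ND4L and MT-ND4 share 7 bases.

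How much of the library the mitochondrial genome took was asked first. Reads of the 13 protein genes took a smaller share of the library in PM2.5 than in DMSO cells, and reads of the rRNAs and tRNAs a larger one. The protein genes held 2.68%, 2.61% and 2.53% of reads in CDSUM, 3.27%, 2.76% and 3.14% in CDWIN, 3.29%, 2.85% and 3.52% in CQSUM, and 2.92%, 4.29% and 5.17% in CQWIN, against 4.77%, 4.06% and 4.60% in DMSO. All CDSUM, CDWIN and CQSUM libraries lay below the DMSO range, whereas CQWIN 2 lay inside it and CQWIN 3 above it. The rRNA genes held 1.02%, 1.00% and 0.829% in CDSUM, 1.63%, 1.38% and 1.78% in CDWIN, 1.63%, 1.61% and 1.73% in CQSUM, and 1.33%, 1.61% and 1.34% in CQWIN, against 0.873%, 0.886% and 0.966% in DMSO. CDSUM 3 was the only PM2.5 library not above the DMSO range. The tRNA genes held 0.109% to 0.123% in CDSUM, 0.0895% to 0.122% in CDWIN, 0.0777% to 0.111% in CQSUM and 0.0556% to 0.0903% in CQWIN, against 0.0607% to 0.0759% in DMSO.

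**Figure D1:**
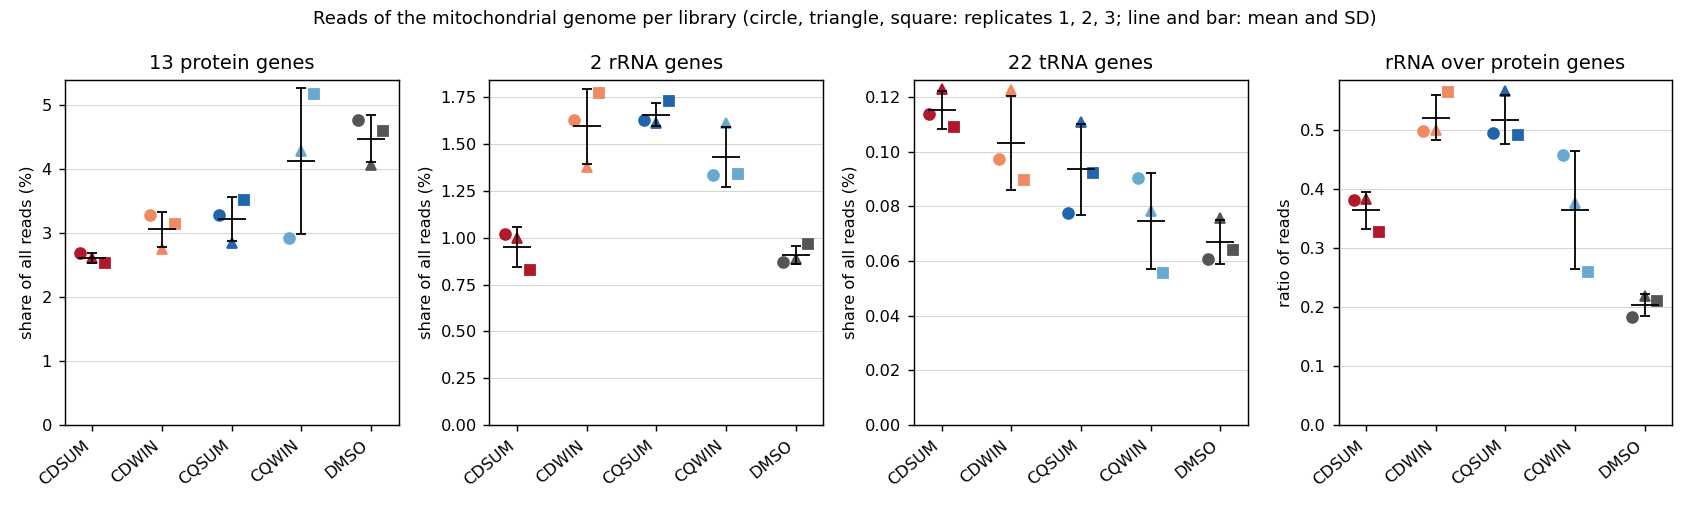
Reads of the mitochondrial genome in each library, by transcript class, as percent of all gene reads, and the ratio of rRNA to protein-gene reads. Points are libraries (circle, triangle and square for replicates 1, 2 and 3) and the line and bar are the mean and SD of 3 libraries. The ratio was above the DMSO range in all 12 PM2.5 libraries, and the CQWIN libraries were the most spread in the protein-gene share.

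The ratio of rRNA to protein-gene reads is taken within the mitochondrial reads and does not depend on the library scaling. Whether the libraries captured both classes alike in all groups was not tested. This ratio was 0.381, 0.383 and 0.328 in CDSUM, 0.498, 0.5 and 0.565 in CDWIN, 0.496, 0.566 and 0.492 in CQSUM, and 0.457, 0.377 and 0.259 in CQWIN, against 0.183, 0.218 and 0.21 in DMSO. All 12 PM2.5 libraries were above all 3 DMSO libraries, by 1.09 in the mean log2 ratio (exact two-sided permutation test, p = 0.0044, the smallest that 455 splits allow). Adjusted over the 6 measures tested in this way by Benjamini-Hochberg, the p was 0.0264. With 3 libraries against 3 a single PM2.5 group cannot reach a p under 0.1.

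The other shares were tested in the same way over 12 PM2.5 and 3 DMSO libraries. Protein genes averaged 3.25% ± 0.775 in PM2.5 and 4.47% ± 0.371 in DMSO (SD, n = 12 and 3, exact permutation p = 0.0396, adjusted 0.0475). The rRNA share averaged 1.41% ± 0.314 and 0.908% ± 0.0506 (exact permutation p = 0.0308, adjusted 0.0475), and the tRNA share 0.0967% ± 0.0203 and 0.0669% ± 0.00798 (exact permutation p = 0.0352, adjusted 0.0475), in PM2.5 and DMSO. The whole mitochondrial share averaged 4.76% ± 0.92 and 5.45% ± 0.375, and this difference did not pass the test (exact permutation p = 0.229). Each of the 3 class shares missed 0.05 when any 1 of the DMSO libraries was left out.

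Libraries differed in how read counts of nuclear genes ran with gene length and GC content. The length slope was positive in DMSO 1, 2 and 3 at 0.202, 0.106 and 0.198 log2 units per doubling of length. All CDSUM and CDWIN libraries had negative slopes, from −0.149 to −0.0673, CQSUM libraries ran from −0.0986 to 0.0483, and CQWIN 1, 2 and 3 had −0.102, 0.0352 and 0.181. CQWIN 3 thus lay inside the DMSO range, and its protein-gene share was the highest of all 15 libraries. The GC slope was 0.142 to 0.206 log2 units per 10 percentage points in CDSUM and 0.152 to 0.343 in DMSO, but −0.104 to −0.220 in all other libraries except CDWIN 2, at 0.131. The CDSUM libraries, with GC slopes in or near the DMSO range, had the lowest protein-gene shares. The edgeR fits below were also run with GC and length trends, estimated on nuclear genes, taken out, and shares, ratios and FPKM levels are without that correction. Such a correction can also take out real change where slopes run along the groups.

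**Figure D2:**
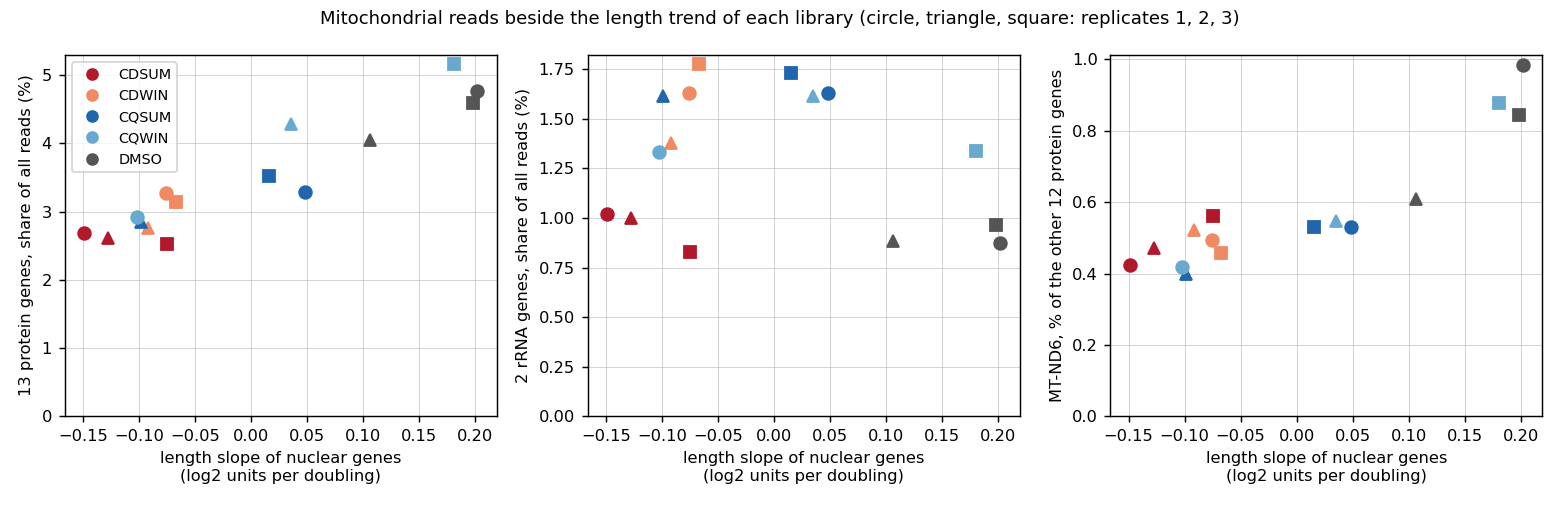
Each library's protein-gene share, rRNA share and MT-ND6 reads as percent of the other 12 protein genes (vertical axes) against the slope of nuclear gene counts on gene length (horizontal axis, log2 units per doubling). Colours are the 5 groups and shapes the replicate numbers. The DMSO libraries and CQWIN 3 sit together at the right, between 0.106 and 0.202, where the protein-gene share runs from 4.06% to 5.17% and the MT-ND6 percentage from 0.61 to 0.984.

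Single genes were tested with edgeR on counts. A gene is called where its adjusted p (Benjamini-Hochberg over all 15565 genes tested) is under 0.05, and levels are CPM after TMM scaling (trimmed mean of M-values, a correction for library composition). Of the 37 mitochondrial genes, 25 passed the filter on low counts: all 13 protein genes, both rRNAs and 10 tRNAs. The other 12 tRNA genes had 4 to 89 reads over all libraries and were not tested. Against the same 3 DMSO libraries, 4 of the 25 were called higher and 14 lower in CDSUM, where 15.3% and 31.2% of all genes tested were called higher and lower. In CDWIN 5 were higher and 10 lower (18.4% and 23.3% of all genes), in CQSUM 3 and 9 (13.7% and 18.8%), and in CQWIN 2 and 4 (11.6% and 15.8%). The protein genes had median log2 fold changes of −1.19, −0.48, −0.52 and −0.19 in CDSUM, CDWIN, CQSUM and CQWIN, beside −0.25, −0.11, −0.0042 and 0.021 for all genes tested. Groups did not overlap for 19 of the 25 genes in CDSUM (61.8% of all genes), 17 in CDWIN (52.5%), 18 in CQSUM (51.8%) and 6 in CQWIN (38.8%), each against DMSO.

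The TMM scaling sets a limit on small changes. With the size factors of DESeq2 the medians of all genes were −0.10, −0.035, 0.081 and 0.081, and without CQWIN 2 the TMM medians became −0.038, 0.042, 0.19 and 0.13. Without CQWIN 3 they were −0.037, 0.043, 0.19 and 0.17. Calls of mitochondrial genes that were lost through such a shift are named beside the gene.

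**Figure D3:**
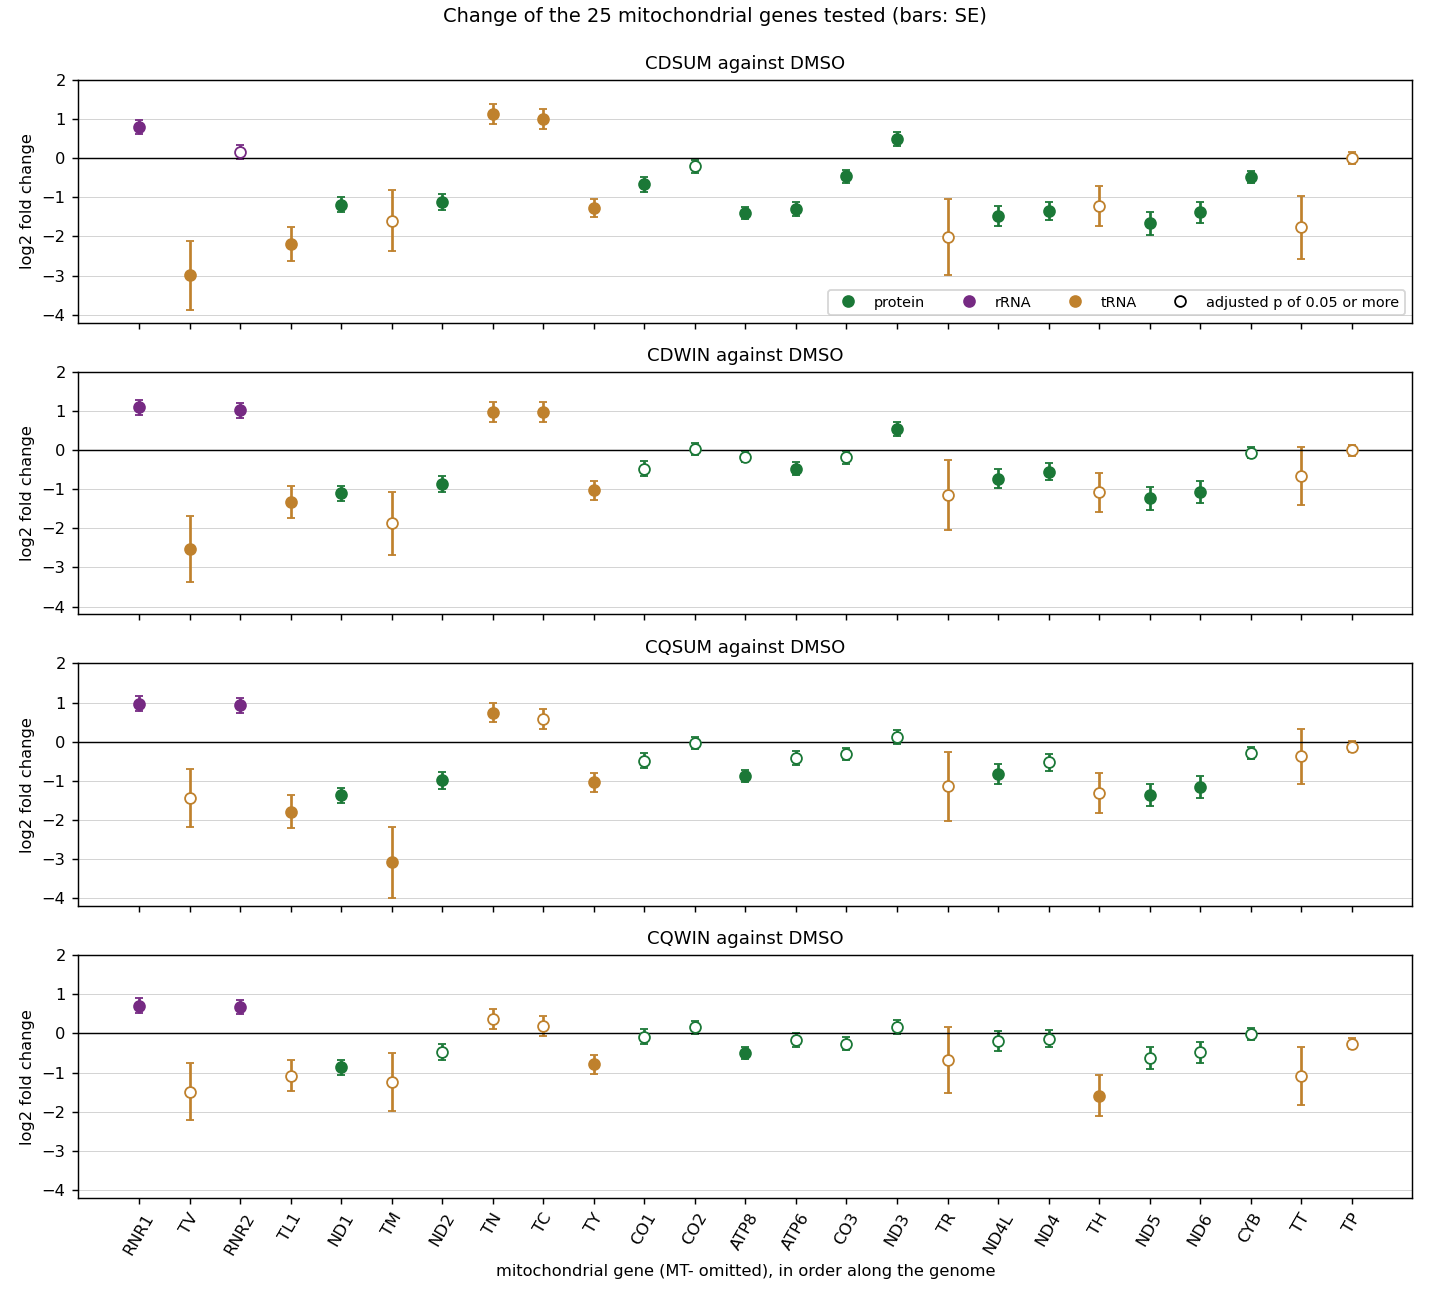
Log2 fold change against DMSO of the 25 mitochondrial genes tested, in their order along the genome, with 1 panel per PM2.5 group. Bars are SE, colours are the transcript classes, and open points were not called. The rRNAs lie above 0 in all 4 panels, from 0.16 to 1.08, and MT-ND1 and MT-ND5 lie below 0 in all 4.

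MT-RNR1 rose in all 4 PM2.5 groups and MT-RNR2 in CDWIN, CQSUM and CQWIN. MT-RNR1 (small subunit rRNA, chrMT:648-1601) had 1018, 999 and 839 CPM in CDSUM, 1125, 1133 and 1256 in CDWIN, 906, 1288 and 1064 in CQSUM and 1036, 1006 and 681 in CQWIN, against 497, 607 and 555 in DMSO. All 12 PM2.5 libraries were above all DMSO libraries. Its log2 fold change was 0.78 ± 0.18 (adjusted p = 0.00239) in CDSUM, 1.08 ± 0.18 (adjusted p = 0.000382) in CDWIN, 0.97 ± 0.18 (adjusted p = 0.000963) in CQSUM and 0.71 ± 0.18 (adjusted p = 0.00743) in CQWIN. MT-RNR2 (large subunit rRNA, chrMT:1671-3229) had 10024, 9468 and 7410.0 CPM in CDSUM, 16684, 14011 and 17686 in CDWIN, 14356, 15943 and 15389 in CQSUM and 13230.4, 14637 and 10539.7 in CQWIN, against 7506, 8274 and 8291 in DMSO. CDSUM 3 lay below the DMSO range and the other 11 PM2.5 libraries above it. MT-RNR2 rose by 1.01 ± 0.19 (adjusted p = 0.000664) in CDWIN, 0.92 ± 0.19 (adjusted p = 0.00159) in CQSUM and 0.67 ± 0.19 (adjusted p = 0.0123) in CQWIN, and it was not called in CDSUM at 0.16 ± 0.18 (adjusted p = 0.494). In a fit on the compared groups only, the CQWIN calls of MT-RNR1 (0.73) and MT-RNR2 (0.69) were lost, and MT-RNR2 was called in CDSUM (0.39). The MT-RNR2 call in CQWIN was also lost without DMSO 1 (0.63), and in CDSUM MT-RNR2 was called without CQWIN 3 (0.37).

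With GC and length trends removed the rRNA increases were smaller. MT-RNR1 was at 0.21, 0.40, 0.39 and 0.20 in CDSUM, CDWIN, CQSUM and CQWIN, called in CDWIN and CQSUM. MT-RNR2 was at −0.19, 0.34, 0.30 and 0.13 and was called in no comparison with DMSO. MT-RNR1 and MT-RNR2 come from the same precursor, and MT-RNR1 reads were 10.2%, 10.5% and 11.3% of MT-RNR2 reads in CDSUM, against 6.63%, 7.34% and 6.69% in DMSO. In the other PM2.5 groups this percentage was 6.31 to 8.09.

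Among the complex I genes, which encode the membrane arm of the enzyme that oxidises NADH, MT-ND1 was lower in all 4 PM2.5 groups and MT-ND5 in 3 of them. MT-ND1 (chrMT:3307-4262) had 819, 823 and 865 CPM in CDSUM, 953, 901 and 793 in CDWIN, 735, 672 and 801 in CQSUM and 713, 1047 and 1381 in CQWIN, against 2079, 1872 and 1756 in DMSO. All 12 PM2.5 libraries were below all DMSO libraries. MT-ND1 fell by 1.19 ± 0.19 (adjusted p = 0.000352) in CDSUM, 1.11 ± 0.19 (adjusted p = 0.000476) in CDWIN, 1.37 ± 0.19 (adjusted p = 0.000159) in CQSUM and 0.86 ± 0.19 (adjusted p = 0.0034) in CQWIN on the log2 scale, the last lost in a fit on the compared groups only (−0.85). MT-ND5 (chrMT:12337-14148) had 323, 333 and 382 CPM in CDSUM, 492, 464 and 438 in CDWIN, 420.1, 335 and 525 in CQSUM and 371, 651 and 1108 in CQWIN, against 1353, 784 and 1150.4 in DMSO. CQWIN 3 was inside the DMSO range and the other 11 PM2.5 libraries were below it. MT-ND5 had log2 fold changes of −1.66 ± 0.29 (adjusted p = 0.000491) in CDSUM, −1.24 ± 0.29 (adjusted p = 0.00251) in CDWIN and −1.36 ± 0.29 (adjusted p = 0.00211) in CQSUM, and −0.63 ± 0.28 (adjusted p = 0.106) in CQWIN, where it was called without CQWIN 3 (−0.90), without a filter on low counts (−0.62) or with a replicate block and both trends removed (−1.04).

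MT-ND2 (chrMT:4470-5511) had 741, 681 and 689 CPM in CDSUM, 939, 699 and 890.3 in CDWIN, 822, 647 and 858 in CQSUM and 761, 1075 and 1482 in CQWIN, against 1754, 1367 and 1499 in DMSO. The libraries of CDSUM, CDWIN and CQSUM were all below DMSO. MT-ND2 fell by 1.13 ± 0.21 (adjusted p = 0.000669), 0.87 ± 0.21 (adjusted p = 0.00305) and 0.99 ± 0.21 (adjusted p = 0.00205) in these 3 groups, and was at −0.48 ± 0.21 (adjusted p = 0.0913) in CQWIN, called there without CQWIN 3 (−0.55) or with GC and length trends removed (−0.99). MT-ND4L and MT-ND4 are read from 1 mRNA. MT-ND4 (chrMT:10760-12137) had 1128, 961 and 990.0 CPM in CDSUM, 1995, 1478 and 1881 in CDWIN, 1870.3, 1555 and 2048 in CQSUM and 1552, 2552 and 3061 in CQWIN, against 2969, 2187 and 2707 in DMSO. CDSUM was the lowest group, and CQWIN 2 and 3 were in or above the DMSO range. MT-ND4 fell by 1.35 ± 0.22 (adjusted p = 0.000352) in CDSUM, with −0.55 ± 0.22 (adjusted p = 0.0467) in CDWIN, −0.52 ± 0.22 (adjusted p = 0.071) in CQSUM and −0.13 ± 0.22 (adjusted p = 0.686) in CQWIN. The CDWIN call of MT-ND4 was lost with the size factors of DESeq2 (−0.48) and without any 1 of 12 libraries (−0.64 to −0.40). In CQSUM MT-ND4 was called in a fit on the compared groups (−0.51), without CQWIN 1 (−0.52), and with the length trend (−0.72) or both trends (−1.09) removed. MT-ND4L fell by 1.48 ± 0.26 (adjusted p = 0.0005), 0.73 ± 0.25 (adjusted p = 0.028) and 0.83 ± 0.25 (adjusted p = 0.0193) in CDSUM, CDWIN and CQSUM. The MT-ND4L call in CDWIN was lost without CDWIN 2, CDWIN 3, CQWIN 2, DMSO 1 or DMSO 3 (−0.78 to −0.58) and its CQSUM call without CQSUM 1, CQSUM 2, CQWIN 2, DMSO 1 or DMSO 3 (−0.79 to −0.63).

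MT-ND3 was the exception in complex I. MT-ND3 (chrMT:10059-10404) had 1673, 1722 and 1515 CPM in CDSUM, 1731, 1829 and 1469.9 in CDWIN, 1067, 1489 and 1249 in CQSUM and 1541, 1315 and 1088 in CQWIN, against 1082, 1399.6 and 1011 in DMSO. CDSUM and CDWIN libraries were above all DMSO libraries, and CQSUM and CQWIN overlapped them. MT-ND3 rose by 0.49 ± 0.18 (adjusted p = 0.0334) in CDSUM and 0.53 ± 0.18 (adjusted p = 0.0266) in CDWIN. Both calls were lost with the length trend removed (0.034 and 0.069), and with GC and length trends removed its sign turned in CDWIN (−0.34), CQSUM (−0.69) and CQWIN (−0.50), with a call in CQSUM. In CQWIN it was called higher without CQWIN 3 (0.48). MT-ND3 calls were also lost without DMSO 1 (0.44 and 0.47), DMSO 3 (0.40 and 0.43), CDSUM 1 (0.48), CDSUM 2 (0.45), CDWIN 1 (0.50) or CDWIN 2 (0.46).

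MT-ND6 is the complex I subunit on the light strand. MT-ND6 (chrMT:14149-14673) had 122, 129 and 141 CPM in CDSUM, 176, 158 and 152 in CDWIN, 162, 121 and 177 in CQSUM and 130.3, 226 and 377 in CQWIN, against 426, 247 and 353 in DMSO. CQWIN 3 lay inside the DMSO range and the other PM2.5 libraries below it. MT-ND6 fell by 1.39 ± 0.27 (adjusted p = 0.000952) in CDSUM, 1.08 ± 0.27 (adjusted p = 0.00443) in CDWIN and 1.16 ± 0.27 (adjusted p = 0.00427) in CQSUM, and it was at −0.48 ± 0.27 (adjusted p = 0.192) in CQWIN, called without CQWIN 3 (−0.74). As a percentage of the reads of the other 12 protein genes MT-ND6 was 0.424, 0.473 and 0.561 in CDSUM, 0.495, 0.523 and 0.456 in CDWIN, 0.529, 0.399 and 0.531 in CQSUM, and 0.419, 0.548 and 0.878 in CQWIN, against 0.984, 0.61 and 0.846 in DMSO. Of 12 PM2.5 libraries, 11 were below all DMSO libraries (exact two-sided permutation test on log2 ratios, p = 0.0132, adjusted 0.0396 over 6 measures). Without DMSO 1 the difference was −0.50 on the log2 scale with an exact permutation p of 0.0659. MT-ND6 directly abuts MT-ND5 on the opposite strand, and antisense reads cannot be told apart here. Group means of the 2 genes ran alike. MT-ND5 averaged 346, 465, 427 and 710 CPM in CDSUM, CDWIN, CQSUM and CQWIN, against 1096 in DMSO. MT-ND6 averaged 131, 162, 153 and 244 CPM in the same groups, against 342 in DMSO. This order of groups was not particular to the pair. MT-ND2, which does not touch MT-ND6, averaged 704, 843, 776 and 1106 CPM, against 1540 in DMSO. MT-ND4L, which does not touch it either, averaged 252, 424, 397 and 615 CPM, against 703 in DMSO. As the sources do not say whether strand was kept, a change of the light-strand precursor and one in reads from the MT-ND5 side cannot be told apart.

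**Figure D4:**
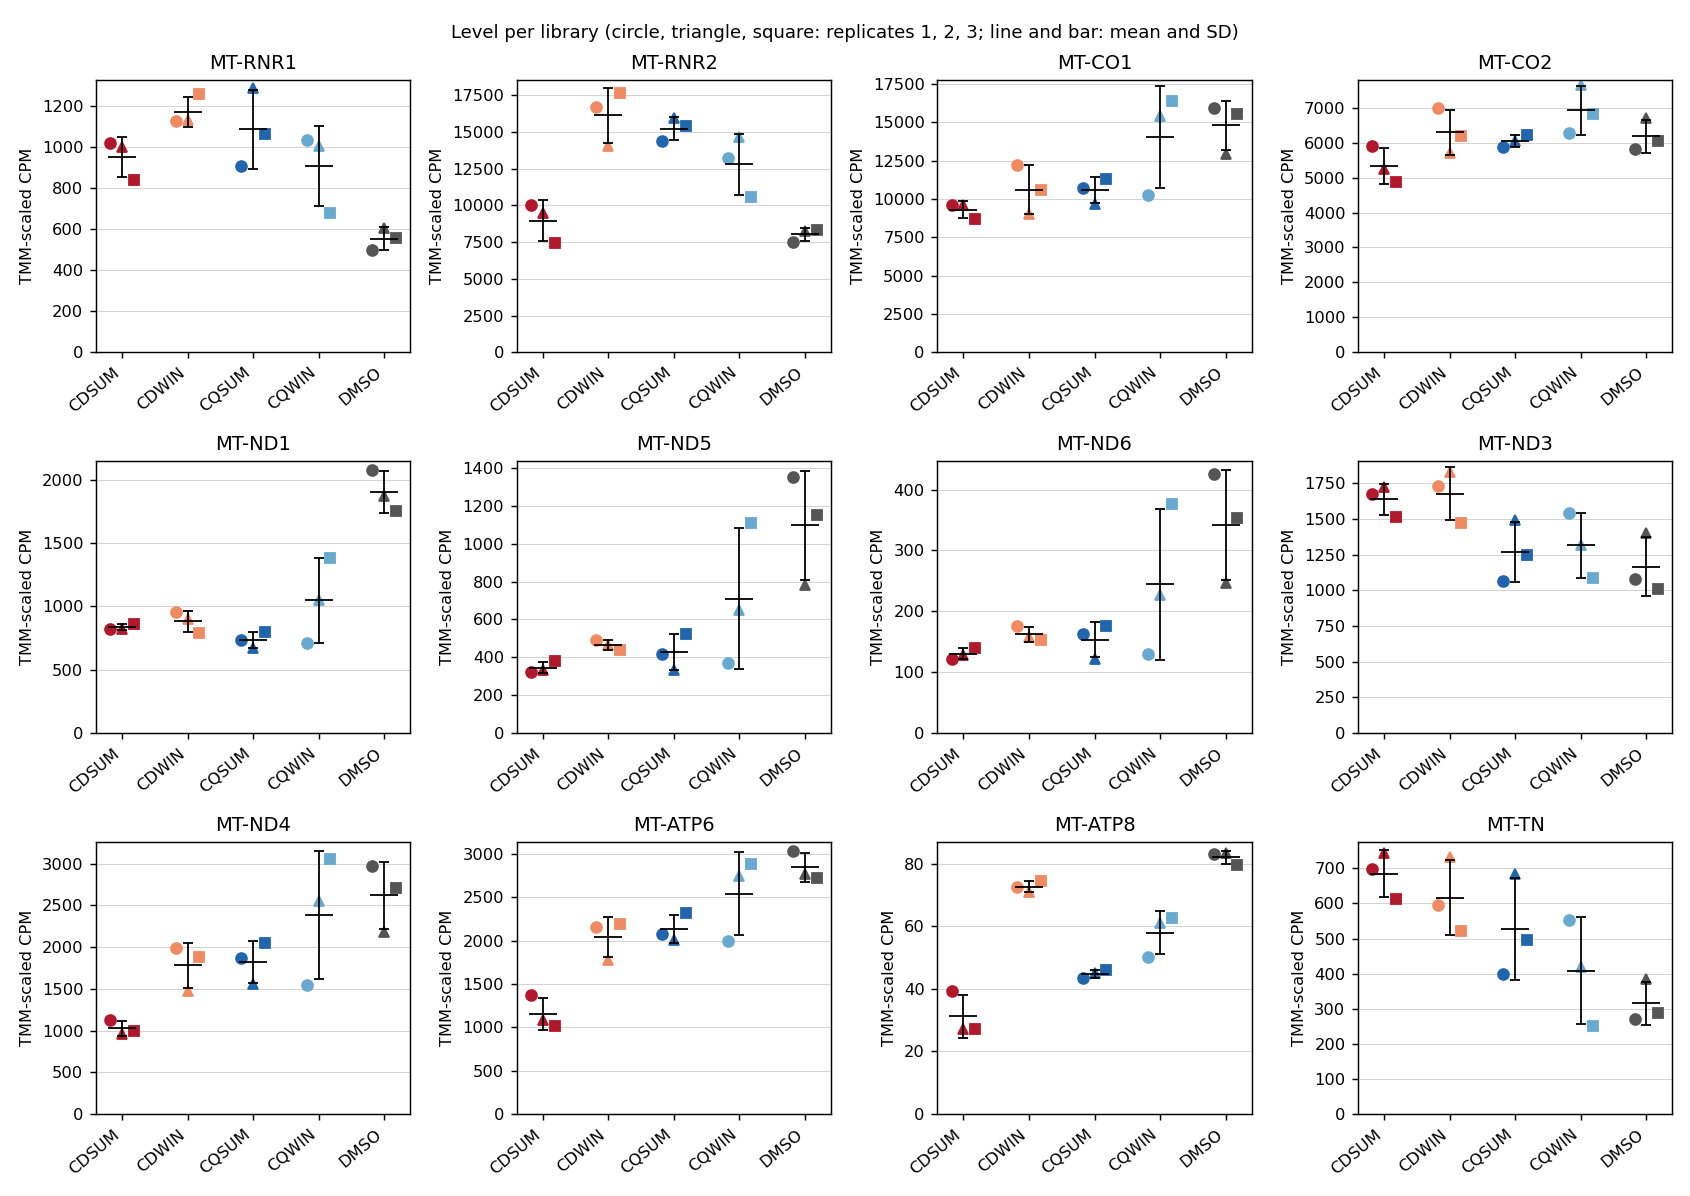
TMM-scaled CPM per library of selected mitochondrial genes, with a panel per gene and a linear axis from 0. Points are libraries (circle, triangle and square for replicates 1, 2 and 3) and lines and bars are the mean and SD of 3 libraries. MT-RNR1 lay above the DMSO range and MT-ND1 below it in all 12 PM2.5 libraries.

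Of the complex IV genes, which encode the catalytic core of cytochrome c oxidase, MT-CO1 and MT-CO3 fell in CDSUM and MT-CO2 was called in no group. MT-CO1 (chrMT:5904-7445) had 9644, 9601 and 8691 CPM in CDSUM, 12210.2, 9011 and 10618 in CDWIN, 10715, 9674 and 11340.4 in CQSUM and 10254, 15449 and 16423 in CQWIN, against 15919.6, 12974 and 15549.7 in DMSO. CDSUM, CDWIN and CQSUM were below DMSO and CQWIN 3 was above it. MT-CO1 fell by 0.67 ± 0.20 (adjusted p = 0.0109) in CDSUM, a call lost without CQWIN 2 or without a filter on low counts (−0.46 in both). It was not called at −0.48 ± 0.20 (adjusted p = 0.059) in CDWIN, −0.49 ± 0.20 (adjusted p = 0.0674) in CQSUM and −0.08 ± 0.20 (adjusted p = 0.81) in CQWIN. It was called in CDWIN and CQSUM with a filter of 5 CPM in 3 libraries (−0.49 in both) and without CQWIN 1 (−0.48 in both), and in CDWIN also by DESeq2 (−0.41) and in a fit on the compared groups (−0.44). MT-CO2 (chrMT:7586-8269) had 5896, 5252 and 4873 CPM in CDSUM, 7003, 5717 and 6182 in CDWIN, 5886, 6052 and 6234 in CQSUM and 6279, 7663 and 6835 in CQWIN, against 5809, 6722 and 6042 in DMSO. The groups overlapped, with 3 PM2.5 libraries above and 3 below the DMSO range. MT-CO2 was called in no comparison with DMSO, with log2 fold changes of −0.21, 0.025, −0.031 and 0.16. With GC and length trends removed MT-CO2 was called lower in CDSUM (−0.84), CDWIN (−0.66) and CQSUM (−0.58). MT-CO3 fell by 0.47 ± 0.16 (adjusted p = 0.0242) in CDSUM, but not with the size factors or the Wald test of DESeq2 (−0.32), without a filter (−0.26), in a fit on the compared groups only (−0.24), or without CDSUM 2 (−0.49), CDSUM 3 (−0.39), CQWIN 2 or CQWIN 3 (−0.26), DMSO 2 (−0.38) or DMSO 3 (−0.50). MT-CO3 was called lower in all 4 groups with GC and length trends removed (−1.08, −0.84, −0.85 and −0.69).

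The complex III gene MT-CYB, which encodes cytochrome b, had 1259 to 2007 CPM in PM2.5 and 1738 to 1919 CPM in DMSO libraries. It fell in CDSUM alone among the 4 comparisons, by 0.48 ± 0.15 (adjusted p = 0.014), a call lost with the size factors of DESeq2 (−0.33), without a filter (−0.27), in a fit on the compared groups (−0.25), or without CDSUM 2 (−0.46), CQWIN 2 or CQWIN 3 (−0.27) or DMSO 1 (−0.44). MT-CYB was, with GC and length trends removed, called lower in CDSUM (−1.02), CDWIN (−0.68) and CQSUM (−0.79), and in CQSUM also with the length trend alone removed (−0.51).

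Complex V genes, which encode ATP synthase subunits of the membrane part, were lowest in CDSUM. MT-ATP8 (chrMT:8366-8572) had 39.2, 27.3 and 27.1 CPM in CDSUM, 72.6, 70.9 and 74.3 in CDWIN, 43.5, 45 and 46 in CQSUM and 50.2, 61 and 62.7 in CQWIN, against 83, 83.4 and 79.7 in DMSO. All 12 PM2.5 libraries were below all DMSO libraries, CDSUM lowest and CDWIN closest to DMSO. MT-ATP8 fell by 1.40 ± 0.15 (adjusted p = 1.62e-05) in CDSUM, 0.87 ± 0.15 (adjusted p = 0.000528) in CQSUM and 0.50 ± 0.15 (adjusted p = 0.0172) in CQWIN, and was at −0.18 ± 0.15 (adjusted p = 0.351) in CDWIN, where it was called lower with the length trend (−0.60) or both trends (−0.99) removed. Its CQWIN call was lost in a fit on the compared groups only (−0.48) and without any CQWIN library, DMSO 1 or DMSO 2 (−0.49 to −0.37). MT-ATP6 (chrMT:8527-9207) had 1369.9, 1079 and 1019 CPM in CDSUM, 2158, 1776 and 2195 in CDWIN, 2073, 2006 and 2316 in CQSUM and 1996, 2748 and 2878 in CQWIN, against 3039, 2765 and 2728 in DMSO. All PM2.5 libraries but CQWIN 2 and CQWIN 3 were below all DMSO libraries. MT-ATP6 fell by 1.30 ± 0.18 (adjusted p = 0.000121) in CDSUM, and its values were −0.48 ± 0.18 (adjusted p = 0.0365) in CDWIN, −0.42 ± 0.18 (adjusted p = 0.0771) in CQSUM and −0.16 ± 0.18 (adjusted p = 0.524) in CQWIN. The CDWIN call of MT-ATP6 was lost with the size factors of DESeq2 (−0.41), without a filter (−0.45) and without any 1 of 9 libraries (−0.53 to −0.32). MT-ATP6 was called in CQSUM in a fit on the compared groups (−0.41), without CQWIN 1 (−0.41), with the length trend removed (−0.70) and with both removed (−1.08), and in CQWIN with both removed (−0.67). MT-ATP8 and MT-ATP6 lie on 1 mRNA and share the 46 bases printed above, so their reads are not independent.

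As a share of mitochondrial protein-gene reads, complex V genes held 4.05% to 4.86% in CDSUM and 6.10% to 7.06% in the other PM2.5 groups, against 6.67% to 7.14% in DMSO. The 7 complex I genes held 16.9% to 21.7% in PM2.5 and 20.6% to 24.0% in DMSO, and those other than MT-ND3 11.6% to 19.1% and 17.2% to 21.5%. Complex IV genes held 66.9% to 73.4% in PM2.5 and 64.5% to 67.9% in DMSO, and MT-CYB 4.47% to 5.43% and 4.13% to 4.47%. These percentages describe the make-up of the protein-gene reads and were not tested.

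With GC and length trends removed, 17, 18, 18 and 9 mitochondrial genes were called lower in CDSUM, CDWIN, CQSUM and CQWIN, where 17.4%, 14%, 8.94% and 7.33% of all genes tested were lower in that fit. The counts called higher were 2, 2, 1 and 0, beside 20.6%, 18%, 9.5% and 8.04% of all genes. MT-ND1 was then at −1.75, −1.68, −1.81 and −1.17 in CDSUM, CDWIN, CQSUM and CQWIN, called in all 4, and MT-ND5 at −2.04, −1.76, −1.83 and −0.96, the last not called. MT-CO1 was at −1.13, −1.02 and −0.93 in CDSUM, CDWIN and CQSUM, called in each.

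The tRNA genes differed in direction. Over all libraries MT-TN held 55.2% of the 252826 tRNA reads, MT-TC 34.6% and MT-TP 8.68%, and the other 19 tRNA genes together held 3816 reads. Mature tRNAs are folded, short and without a poly(A) tail, and which molecules these reads came from was not tested. MT-TN had 698, 744 and 613 CPM in CDSUM, 595, 732 and 522 in CDWIN, 399, 684 and 497 in CQSUM and 554, 419 and 249.8 in CQWIN, against 272, 385 and 289 in DMSO. CDSUM and CDWIN libraries were above all DMSO libraries, CQSUM too, and CQWIN 3 was below them. MT-TN rose by 1.12 ± 0.25 (adjusted p = 0.0019) in CDSUM, 0.97 ± 0.25 (adjusted p = 0.0048) in CDWIN and 0.74 ± 0.25 (adjusted p = 0.0284) in CQSUM, and was at 0.37 ± 0.25 (adjusted p = 0.279) in CQWIN. In CQWIN it was called without CQWIN 3 (0.81), and the CQSUM call was lost without CQSUM 2 (0.51), CQSUM 3 (0.78), DMSO 1 (0.64) or DMSO 3 (0.68).

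MT-TC had 432, 453 and 386 CPM in CDSUM, 376, 514 and 345 in CDWIN, 248, 404 and 299 in CQSUM and 329, 254 and 138 in CQWIN, against 180.1, 259 and 194 in DMSO. All CDSUM and CDWIN libraries were above the DMSO range, and CQWIN 3 was below it. MT-TC rose by 1.01 ± 0.26 (adjusted p = 0.00443) in CDSUM and 0.96 ± 0.26 (adjusted p = 0.006) in CDWIN, with 0.59 ± 0.25 (adjusted p = 0.0843) in CQSUM and 0.19 ± 0.25 (adjusted p = 0.625) in CQWIN. MT-TC was called in CQSUM by DESeq2 (0.66), without a filter or in a fit on the compared groups (0.60 in both), with a replicate block (0.59), and without CQWIN 1 (0.59), CQWIN 2 or CQWIN 3 (0.77), and in CQWIN without CQWIN 3 (0.65). MT-TC reads were 55.2% to 70.2% of MT-TN reads in PM2.5 and 66.2% to 67.3% in DMSO. With GC and length trends removed MT-TN was at 0.91, 0.42, 0.27 and −0.025 and called in CDSUM, and MT-TC was at 0.64, 0.58, 0.34 and −0.019 and called in CDSUM and CDWIN. MT-TP (tRNA for proline, chrMT:15956-16023) had 61 to 91.6 CPM in PM2.5 and 73.8 to 98.5 CPM in DMSO and was called in none of the 4 comparisons as tested. MT-TP was called lower in CDWIN (−0.64), CQSUM (−0.70) and CQWIN (−0.67) with GC and length trends removed.

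Of tRNA genes with few reads, MT-TY fell in all 4 PM2.5 groups and MT-TL1 in 3 of them. MT-TY (tRNA for tyrosine, chrMT:5826-5891) had 4.19, 4.95 and 2.66 CPM in CDSUM, 4.44, 5.11 and 4.4 in CDWIN, 4.43, 4.14 and 5.29 in CQSUM and 4.96, 4.91 and 6.62 in CQWIN, against 9.29, 8.49 and 10.8 in DMSO. All 12 PM2.5 libraries were below all DMSO libraries, and MT-TY shares 1 base with MT-TC, which rose in CDSUM and CDWIN. MT-TY fell by 1.27 ± 0.24 (adjusted p = 0.000734) in CDSUM, 1.03 ± 0.24 (adjusted p = 0.00235) in CDWIN, 1.04 ± 0.23 (adjusted p = 0.00331) in CQSUM and 0.79 ± 0.23 (adjusted p = 0.0177) in CQWIN, the last lost in a fit on the compared groups (−0.77) and without CQWIN 1, CQWIN 2 or DMSO 3 (−0.72, −0.58 and −0.69). MT-TL1 had 2.09, 0.979 and 1.25 CPM in CDSUM, 1.79, 2.67 and 3.35 in CDWIN, 2.34, 1.83 and 1.54 in CQSUM and 1.3, 2.94 and 5.1 in CQWIN, against 8.54, 3.84 and 7.38 in DMSO. All PM2.5 libraries but CQWIN 3 were below all DMSO libraries. MT-TL1, which follows MT-RNR2 directly, fell by 2.20 ± 0.43 (adjusted p = 0.000947), 1.34 ± 0.41 (adjusted p = 0.0146) and 1.79 ± 0.42 (adjusted p = 0.00418) in CDSUM, CDWIN and CQSUM. Its CDWIN call was lost without CDWIN 1 (−1.12) or DMSO 1 (−1.11). MT-TL1 was at −1.07 ± 0.40 (adjusted p = 0.0548) in CQWIN, called there by DESeq2 (−1.02), without a filter (−1.07), without CQWIN 3 (−1.43) or DMSO 2 (−1.34), and with both trends removed (−1.41). MT-TL1 reads were 0.0098% to 0.0483% of MT-RNR2 reads in PM2.5, against 0.114%, 0.0465% and 0.089% in DMSO.

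Of the other 5 tRNAs tested, MT-TV, between the rRNAs, had 1 to 15 reads per PM2.5 library and 15, 9 and 33 in DMSO 1, 2 and 3. MT-TV was called lower in CDSUM (−3.0 ± 0.87, adjusted p = 0.00989) and CDWIN (−2.54 ± 0.84 (adjusted p = 0.0214)), and neither call held without DMSO 3 (−2.38 and −1.92), nor the CDWIN call without CDWIN 1 (−2.14) or CDWIN 3 (−2.36). In CQWIN it was called without CQWIN 3 (−2.59). MT-TM, with 0 to 10 reads per PM2.5 library and 28, 8 and 12 in DMSO, was called lower in CQSUM (lost without CQSUM 1, CQSUM 3 or DMSO 1). In CDWIN it was called without CDWIN 1 (−4.47) and with the length trend (−2.12) or both trends (−2.24) removed. MT-TH, with 4 to 27 reads per PM2.5 library and 57, 22 and 56 in DMSO, was called lower in CQWIN as tested (lost without CQWIN 1, CQWIN 3, DMSO 1 or DMSO 3 and in a fit on the compared groups). MT-TH was called lower in all 4 groups with GC and length trends removed (−1.34, −1.69, −1.82 and −1.98). It was also called in CDSUM, CDWIN and CQSUM without DMSO 2 (−1.52, −1.39 and −1.61) and with the length trend removed (−1.48, −1.36 and −1.40), in CDSUM and CQSUM without CQWIN 1 (−1.22 and −1.30) and in a fit on the compared groups (−1.0 and −1.30), and in CQSUM without a filter (−1.30). MT-TR and MT-TT were called in no comparison with DMSO as tested. In CDSUM MT-TR was called with both trends removed (−3.16) but not with the length trend alone removed (−2.24). It had 0, 2 and 6 reads there, against 20, 6 and 11 in DMSO. MT-TR has 65 bases and a GC content of 23.1%, and how well trends of nuclear genes hold there was not tested. MT-TT was called in CDSUM without CQWIN 1 (−1.77) or with both trends removed and a replicate block (−1.95).

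CQWIN against DMSO rested on few libraries. Of the 25 genes 6 were called, 12 without CQWIN 3, 3 without CQWIN 1 or without DMSO 1, and 0 in a fit on the compared groups only. Calls over all genes moved the same way. They were 4264 of 15565, 6102 of 15927 without CQWIN 3, 2511 of 15989 without CQWIN 1 and 2656 of 15912 without DMSO 1. A fit on the compared groups called 2249 of 14746. In the edgeR fit on all groups 9 of the 25 had an unadjusted p under 0.05 (39.4% of all genes). DESeq2 called 7 of the 25 and 4769 of all 15565 genes.

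PM2.5 groups were then compared with each other. In CDWIN against CDSUM 4 mitochondrial genes were higher and none lower, where 8.17% and 0.244% of all genes were called. They were MT-ATP8 at 1.22 ± 0.15 (adjusted p = 0.000224), MT-RNR2 at 0.85 ± 0.19 (adjusted p = 0.00691), MT-ATP6 at 0.82 ± 0.18 (adjusted p = 0.00598) and MT-ND4 at 0.80 ± 0.22 (adjusted p = 0.0265). With GC and length trends removed 1 was called, and 7 in a fit on these 2 groups (583 and 1542 of all genes). In CDSUM against CQSUM the same 4 genes were lower and none higher (13.7% and 0.167% of all genes), MT-ATP6 by 0.88 ± 0.18 (adjusted p = 0.00191), MT-ND4 by 0.83 ± 0.22 (adjusted p = 0.0124), MT-RNR2 by 0.76 ± 0.19 (adjusted p = 0.00748) and MT-ATP8 by 0.52 ± 0.15 (adjusted p = 0.0213). These comparisons share the CDSUM libraries. Without CDSUM 3 the counts were 2 and 1 (725 and 1670 of all genes). Without CDWIN 3 the first was 2 (578 of all genes), and without CDSUM 2 or CQSUM 3 the second was 2 (1494 and 1630 of all genes).

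In CQWIN against CQSUM edgeR called no mitochondrial gene, with 6 at an unadjusted p under 0.05, and DESeq2 called none (0.0193% of all genes were called by edgeR and 3.84% had such a p). In CDWIN against CQWIN edgeR and DESeq2 called none, with 6 at an unadjusted p under 0.05 (0.0128% and 15.9% of all genes). Without CQWIN 1 edgeR called 8, and 1882 of all 15989 genes tested there. The interaction, which sets the CDWIN minus CDSUM difference against the CQWIN minus CQSUM difference, called MT-RNR2 and MT-ATP8, both higher, where 1.99% of all genes were called higher and 0.0385% lower.

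Levels of genes can be set side by side only per length, for which the authors' FPKM values, scaled to gene length and depth, were used. In CDSUM the order was MT-TN at 9740 ± 1090, MT-CO2 at 8104 ± 883, MT-CO3 at 6734 ± 820, MT-TC at 6666 ± 633, MT-CO1 at 6267 ± 458 and MT-RNR2 at 5975 ± 1001 FPKM, and in DMSO it was MT-CO1 at 8966 ± 654, MT-CO2 at 8486 ± 979, MT-CO3 at 8433 ± 1257, MT-RNR2 at 4820 ± 395, MT-TN at 4061 ± 954 and MT-ATP6 at 3906 ± 209.8 FPKM (SD, n = 3). MT-TN and MT-TC are only 73 and 66 bases long, against 684 for MT-CO2. In CDSUM MT-TN averaged 685 CPM and MT-CO2 5340 CPM. The FPKM rank of genes this short rests on the division by length, and whether it reflects their abundance was not tested. In DMSO the 3 complex IV genes did not differ from one another beyond their spread, and MT-RNR2 lay below them by more than that. MT-RNR2 led in CDWIN at 10157 ± 975 and CQSUM at 9681 ± 429 FPKM. The lowest protein genes in each group were MT-ND6, MT-ND5 and MT-ATP8, at 258 ± 14.4, 198 ± 14.7 and 156 ± 36.2 FPKM in CDSUM and 606 ± 142, 562 ± 131 and 371 ± 20.7 FPKM in DMSO. Over all 15 libraries 8 mitochondrial genes were among the 12 with the highest FPKM of all genes.

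Nuclear genes that act on the mitochondrial genome were counted by list. Of 17 genes of mitochondrial transcription and the nucleoid, 3 were higher and 4 lower in CDSUM (15.3% and 31.2% of all genes tested), 9 and 3 in CDWIN (18.4% and 23.3%), 6 and 3 in CQSUM (13.7% and 18.8%), and 2 and 2 in CQWIN (11.6% and 15.8%). The median log2 fold changes were 0.086, 0.45, 0.36 and 0.28, beside −0.25, −0.11, −0.0042 and 0.021 over all genes. POLRMT, the mitochondrial RNA polymerase, averaged 82.8 ± 3.94 CPM in CDSUM, 89.4 ± 18.3 in CDWIN, 73 ± 6.65 in CQSUM and 68.1 ± 4.95 in CQWIN, against 153 ± 28 in DMSO (SD, n = 3), and all 12 PM2.5 libraries were below the DMSO range. POLRMT fell by 0.88 ± 0.16 (adjusted p = 0.000633), 0.77 ± 0.16 (adjusted p = 0.00127), 1.06 ± 0.16 (adjusted p = 0.000257) and 1.16 ± 0.16 (adjusted p = 0.000118) in CDSUM, CDWIN, CQSUM and CQWIN. With GC and length trends removed it was at −0.31, −0.19, −0.42 and −0.49, and the CDWIN call was lost. SSBP1, the single-stranded DNA binding protein of the nucleoid, rose by 1.03 ± 0.21 (adjusted p = 0.00124) in CDSUM and 1.01 ± 0.21 (adjusted p = 0.0014) in CDWIN, to 258 ± 14 and 254 ± 8.17 CPM, against 126 ± 20.1 CPM in DMSO. SSBP1 was also called higher in CQSUM (0.67). TFB1M, a methyltransferase of the small rRNA, rose by 0.93 ± 0.21 (adjusted p = 0.00316) in CQSUM, called under every alternative run there. TFB1M was also called higher in CDSUM (0.71) and CQWIN (0.78), and it averaged 15.6 CPM in CDWIN, against 9.31 CPM in DMSO. TWNK, the replicative helicase, fell by 0.79 ± 0.12 (adjusted p = 0.000266) in CDWIN and 0.64 ± 0.12 (adjusted p = 0.00145) in CQWIN. TWNK overlaps the more abundant MRPL43 on the opposite strand.

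Of 27 genes of mitochondrial RNA processing, stability and decay, 2 were higher and 14 lower in CDSUM (15.3% and 31.2% of all genes tested), 5 and 6 in CDWIN (18.4% and 23.3%), 3 and 5 in CQSUM (13.7% and 18.8%), and 2 and 5 in CQWIN (11.6% and 15.8%). The median log2 fold changes were −0.41, −0.14, 0.15 and 0.071, beside −0.25, −0.11, −0.0042 and 0.021 over all genes. LRPPRC and SLIRP form a complex that binds and stabilises mitochondrial mRNAs. LRPPRC averaged 34.6 ± 0.587 CPM in CDSUM, 81.3 ± 26.9 in CDWIN, 105 ± 32.9 in CQSUM and 108 ± 43.6 in CQWIN, against 106 ± 25.8 in DMSO, and fell by 1.62 ± 0.31 (adjusted p = 0.000779) in CDSUM. SLIRP averaged 210.4 ± 14.8 CPM in CDSUM, 196 ± 32.8 in CDWIN, 147 ± 42.2 in CQSUM and 106 ± 46.7 in CQWIN, against 82.3 ± 19.5 in DMSO, and rose by 1.35 ± 0.27 (adjusted p = 0.000911) in CDSUM and 1.25 ± 0.26 (adjusted p = 0.00146) in CDWIN. SLIRP was also called higher in CQSUM (0.83), and it overlaps SNW1 on the opposite strand. PNPT1, the polynucleotide phosphorylase of mitochondrial RNA decay, and PTCD3, a small ribosomal subunit protein, fell by 1.26 ± 0.24 (adjusted p = 0.000755) and 1.20 ± 0.19 (adjusted p = 0.000308) in CDSUM. MRM1, a methyltransferase of the large rRNA, fell by 0.79 ± 0.17 (adjusted p = 0.0022) in CQSUM and 0.89 ± 0.17 (adjusted p = 0.00123) in CQWIN, and FASTKD2, which binds the large rRNA, rose by 0.85 ± 0.18 (adjusted p = 0.00128) in CDWIN, 0.91 ± 0.18 (adjusted p = 0.00128) in CQSUM and 0.73 ± 0.18 (adjusted p = 0.00585) in CQWIN, the last call lost with GC and length trends removed (0.41).

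Of 12 regulators of mitochondrial biogenesis 11 were tested. None was higher and 6 lower in CDSUM (15.3% and 31.2% of all genes tested), 1 and 5 in CDWIN (18.4% and 23.3%), 1 and 4 in CQSUM (13.7% and 18.8%), and 1 and 2 in CQWIN (11.6% and 15.8%). The median log2 fold changes were −0.63, −0.46, −0.22 and −0.26, beside −0.25, −0.11, −0.0042 and 0.021 over all genes. The coactivator gene PPRC1 averaged 32.8 ± 1.62, 32 ± 7.02, 27.8 ± 1.92 and 29.9 ± 10.5 CPM in CDSUM, CDWIN, CQSUM and CQWIN, against 66.7 ± 11.4 in DMSO. PPRC1 fell by 1.03 ± 0.21 (adjusted p = 0.00119), 1.06 ± 0.21 (adjusted p = 0.000975), 1.26 ± 0.21 (adjusted p = 0.000498) and 1.16 ± 0.21 (adjusted p = 0.000896) in the 4 comparisons, and its calls remained with GC and length trends removed (−0.74 to −0.49). MYC fell by 0.82 ± 0.17 (adjusted p = 0.00144), 1.14 ± 0.18 (adjusted p = 0.000221), 0.80 ± 0.17 (adjusted p = 0.00255) and 0.94 ± 0.17 (adjusted p = 0.000987), likewise called with the trends removed (−0.99 to −0.63).

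Of 14 mitochondrial stress and protease genes 1 was higher and 10 lower in CDSUM (15.3% and 31.2% of all genes tested), 1 and 5 in CDWIN (18.4% and 23.3%), 1 and 4 in CQSUM (13.7% and 18.8%), and none and 5 in CQWIN (11.6% and 15.8%). The median log2 fold changes were −0.65, −0.029, 0.15 and −0.0070, beside −0.25, −0.11, −0.0042 and 0.021 over all genes. The inner membrane protease gene OMA1 averaged 0.893 ± 0.103 CPM in CDSUM, 4.11 ± 1.97 in CDWIN, 4.55 ± 1.58 in CQSUM and 5.23 ± 1.49 in CQWIN, against 3.93 ± 0.426 in DMSO, and fell by 2.13 ± 0.38 (adjusted p = 0.000608) in CDSUM. The chaperonin genes HSPD1 and HSPE1, which lie head to head and overlap on opposite strands, moved apart in CDSUM, with HSPD1 lower by 1.12 ± 0.19 (adjusted p = 0.000417) and HSPE1 higher by 1.08 ± 0.24 (adjusted p = 0.00189). HSPE1 was also called higher in CDWIN (0.99) and CQSUM (0.65). TRAP1, a chaperone, fell by 0.87 ± 0.15 (adjusted p = 0.000561) in CQWIN, and ATF5, a factor of the mitochondrial unfolded protein response, by 0.88 ± 0.16 (adjusted p = 0.000747) in CQSUM. TRAP1 was also called lower in CDWIN (−0.71) and CQSUM (−0.58), and ATF5 in CDWIN (−0.72) and CQWIN (−0.73). In CDSUM TRAP1 averaged 141 CPM and ATF5 24.6 CPM, against 222 and 39.2 CPM in DMSO. ATF5 overlaps the more abundant NUP62 on the opposite strand. The length slopes of nuclear genes were −0.149, −0.128 and −0.0749 in CDSUM and 0.202, 0.106 and 0.198 in DMSO. Values with the trends removed are not given here for SSBP1, LRPPRC, SLIRP, PNPT1, PTCD3, OMA1, HSPD1 and HSPE1. What part the length trend has in their CDSUM changes was not tested. Over the 4 comparisons the lists held 32, 42, 20 and 27 calls in the order given, and 21, 30, 13 and 17 with GC and length trends removed. All genes tested had 7239, 6492, 5063 and 4264 calls in CDSUM, CDWIN, CQSUM and CQWIN against DMSO. With these trends removed they had 5917, 4986, 2869 and 2392, so calls fell over all genes too.

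Nuclear copies of mitochondrial DNA can take reads from the mitochondrial genes. Of 394 nuclear pseudogenes of mitochondrial genes 28 had reads. MTATP6P1, on chromosome 1, had 41106 reads over all libraries, 6.77% of those of MT-ATP6, and MTND2P28, also on chromosome 1, had 29187, or 10.3% of those of MT-ND2. MTATP6P1 had 1169 to 1490.0 reads per library in CDSUM, 2010.0 to 2683 in CDWIN, 2283 to 3331 in CQSUM and 2663 to 4304 in CQWIN, against 3153 to 4101 in DMSO. MTND2P28 had 1309 to 1377, 1106 to 1698, 1185 to 1751 and 1279 to 3030.0 reads in the same 4 groups, against 2713 to 3546 in DMSO. How the authors assigned reads that match both places is not stated.

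In the authors' deposited table, with their adjusted p under 0.05, the protein genes were 1 higher and 10 lower in CDSUM (15.3% and 15.1% of all genes with an adjusted p there), 1 and 8 in CDWIN (13% and 12.8%), none and 9 in CQSUM (11.6% and 12.3%), and none and 1 in CQWIN (5.24% and 7.18%). The authors' deposited table has both rRNAs higher in all 4 comparisons with DMSO.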

How the data were processed

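RNA from A549 cells was sequenced in 15 libraries of 5 groups, and groups were taken from the sample titles. The authors deposited 1 table, whose column names give raw read counts and FPKM per library, and for each of their comparisons mean normalised counts per group (not used here), a log2 fold change, a p-value and an adjusted p-value. The labels name 2 library kits, SMARTER mRNA-Seq and NEBNext Ultra. For strand, aligner, counter and reads with several matches nothing is given in the sources used here. The submitters' processing notes name the mouse builds GRCm38 and mm10, but the IDs are human: 58724 of 58735 genes, and all 37 on chromosome MT, have the coordinates of GENCODE release 29 on GRCh38.

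Counts were fitted with edgeR 4.0.16 (limma 3.58.1, R 4.3.3): TMM scaling, filterByExpr, and a quasi-likelihood model of all 5 groups with 10 residual degrees of freedom. Of 29725 genes with reads 15565 were tested, and the genes filtered out held 0.0838% of reads. Each SE was derived from the fold change and its F statistic, and p-values were adjusted by Benjamini-Hochberg over all genes tested. Fold changes of genes with few reads depend on the default prior count of edgeR and are no bounds. A prior count of 2 served only for the log2 CPM behind the trends, slopes and replicate correlations. FPKM served for levels between genes only. Shares and ratios were tested by exact two-sided permutation over libraries (numpy 2.4.6). GC and length trends were natural splines with 6 degrees of freedom, fitted on nuclear genes per library and used as offsets. Scripts were tested on simulated data.

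Any mitochondrial gene could be named. From each pathway list the rule took up to 4 called genes per comparison with DMSO with the largest changes, of which a part is described, and pseudogenes with at least 1% of their parent gene's reads. The genes, lists and alternatives were chosen with earlier results of these data known. Alternatives were the size factors of DESeq2 1.42.0, its Wald test, scaling from nuclear genes, no filter, a filter of 5 CPM in 3 libraries, a replicate block, a fit on the compared groups only, the trend corrections, and leaving out each library.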

Additional observations from a re-analysis of the deposited data

Results flagged for a closer look

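For 2 genes the difference between CDWIN and CDSUM was unlike that between CQWIN and CQSUM, by a test of the interaction in edgeR over all genes. The interaction of MT-RNR2 was 1.10 ± 0.26 on the log2 scale (adjusted p = 0.0357). Leaving out 1 library at a time gave 0.92 to 1.20 with adjusted p of 0.017 to 0.139, and the call held without CDWIN 2, CQSUM 2, CQWIN 1, CQWIN 2 or DMSO 2, 5 of the 15. Among the other alternatives its adjusted p was 0.0779 with the size factors of DESeq2 (1.03), 0.18 without a filter (0.91), 0.119 in a fit on the compared groups (1.06) and 0.189 with GC and length trends removed (0.71). The interaction of MT-ATP8 was 0.85 ± 0.21 (adjusted p = 0.0412). Without 1 library it was 0.76 to 1.05 with adjusted p of 0.0203 to 0.145, and the call held without CDSUM 1, CDWIN 2 or CQWIN 2, 3 of the 15. Its adjusted p was 0.0715 with the size factors of DESeq2 (0.79), 0.232 without a filter (0.67), 0.0518 with a replicate block (0.85), 0.109 in a fit on the compared groups (0.82), 0.145 with the length trend removed (0.73) and 0.833 with GC and length trends removed (0.20). The Wald test of DESeq2 called both genes, at 1.03 for MT-RNR2 and 0.80 for MT-ATP8.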

How the results depend on the processing

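The replicate block gave 18, 15, 13 and 6 mitochondrial calls in CDSUM, CDWIN, CQSUM and CQWIN, against 18, 15, 12 and 6, and the interaction 1. Over all genes the block gave 7446, 6746, 5382 and 4542 calls, against 7239, 6492, 5063 and 4264, and the interaction 273, against 315. Replicate numbers did not pair the libraries: of 30 same-numbered pairs 11 correlated over 0.1 (−0.414 to 0.395), and 5 of 15 libraries correlated best with their own number. CQSUM against DMSO had 19 calls with GC and length trends removed, with or without the block (2869 of all genes, and 3112 with the block). CQWIN against DMSO had 0 in a fit on the compared groups and 11 with block and both trends (2249 and 2460 of all genes). CDWIN against CDSUM had 1 without a filter, 7 in a fit on the compared groups, and 1 with both trends, also with the block. Over all genes these fits called 1332, 1542, 583 and, with the block, 614. CDSUM against CQSUM had 2 with both trends, and CDWIN against CQWIN 1 without a filter (1457 and 522 of all genes). The interaction had 0 with the size factors of DESeq2, without a filter, in a fit on the compared groups, and with both trends with or without the block, and 1 with the length trend. Over all genes it had 252, 569, 48, 84 (58 with the block) and 267 in that order. Calls over the 4 comparisons fell with both trends to 21 of 32 (transcription, 21 with the block), 13 of 20 (biogenesis, 12 with the block) and 17 of 27 (stress and protease). Over all genes calls fell too, from 7239, 6492, 5063 and 4264 to 5917, 4986, 2869 and 2392 in CDSUM, CDWIN, CQSUM and CQWIN. The cause was not tested.

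Leaving out 1 library gave 16 to 22 calls in CDSUM, 10 to 18 in CDWIN, 10 to 19 in CQSUM (19 without CQWIN 1) and 3 to 12 in CQWIN against DMSO, 2 to 5 in CDWIN against CDSUM, 1 to 5 in CDSUM against CQSUM, 0 to 8 in CDWIN against CQWIN, and 0 to 2 for the interaction. Over all genes the ranges against DMSO were 5357 to 7789 in CDSUM, 4792 to 7095 in CDWIN, 3049 to 6084 in CQSUM and 2511 to 6102 in CQWIN. Between PM2.5 groups they were 554 to 1866 in CDWIN against CDSUM, 1487 to 2514 in CDSUM against CQSUM and 0 to 1882 in CDWIN against CQWIN. The interaction had 0 to 883 over all genes. The lists had 16 to 46 (transcription; 16 without DMSO 1), 25 to 50 (RNA processing; 25 without DMSO 1), 15 to 23 (biogenesis) and 23 to 33 calls (stress). Over 12 and 3 libraries the difference of the protein share was −1.43 to −1.08 percentage points without a DMSO library, of the rRNA share 0.467 to 0.553 without any library, and of the tRNA share 0.0267 to 0.0343. The MT-ND6 difference was −0.842 to −0.497.

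Signs of values called in at least 1 of the settings compared turned as follows. With both trends removed, and the same with the block unless given, MT-CO2 in CDWIN was −0.66, and MT-ND3 was −0.34 in CDWIN, −0.69 (block −0.68) in CQSUM and, with the block, −0.48 in CQWIN. Values called in neither fit also turned with both trends removed: MT-ND3 (−0.50), MT-CO2 (−0.28), MT-TN (−0.025) and MT-TC (−0.019) in CQWIN, and MT-RNR2 (−0.19) and MT-TP (−0.24) in CDSUM. CREB1 in CDSUM was 0.077 with the length trend, 0.15 with both and 0.14 with the block. SPG7 was 0.13 in CDSUM with the length trend, 0.21, 0.20, 0.13 and 0.20 in the 4 groups with both, and 0.20, 0.19, 0.13 and 0.19 with the block. LONP1 was 0.062, 0.12 and 0.074 (block 0.064, 0.12 and 0.074) in CDSUM, CDWIN and CQSUM. The whole mitochondrial share in CDWIN minus DMSO was 0.0228 with TMM-scaled totals. In CQWIN minus DMSO it ran from −0.289 (without CQWIN 3) to 0.823, with −0.0364 without DMSO 2. The protein share there ran from −0.872 to 0.254 and the tRNA share from −4.16e-05 to 0.0173 percentage points, the sign turning without CQWIN 1. Depth limits the 12 untested tRNA genes and those tested on fewer than 60 reads per library.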

Other observations

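Some pairs of genes on 1 precursor differed in ratio between groups. MT-ND3 reads were 30.1%, 33.1% and 33.8% of those of its neighbour MT-CO3 in CDSUM, 30.1%, 29.3% and 22.4% in CDWIN, 20.4%, 24.8% and 21.6% in CQSUM, and 27.3%, 21.0% and 19.1% in CQWIN, against 16.8%, 17.7% and 15% in DMSO. All 12 PM2.5 libraries were above all DMSO libraries. MT-ATP8 reads were 2.53% to 2.86% of MT-ATP6 reads in CDSUM, 3.37% to 3.99% in CDWIN, 1.98% to 2.24% in CQSUM and 2.18% to 2.52% in CQWIN, against 2.73% to 3.02% in DMSO. CDWIN lay above the DMSO range, and CQSUM and CQWIN below it. MT-ND4L reads were 19.4% to 28.6% of MT-ND4 reads in PM2.5 and 24.7% to 28.0% in DMSO, so the groups overlapped. MT-ND5 reads were 22.5% to 55.2% of MT-CYB reads in PM2.5, against 70.5%, 43.1% and 66.2% in DMSO. These ratios were looked at after the results were known and were not tested.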
